A study of Mus musculus with 8 samples.

Results

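The genes described here are 45 nucleolar ribosome biogenesis genes, taken by gene symbol from the 55114 genes of a count table of mouse intestinal crypts. All 45 were found under 1 protein-coding entry each, on 18 chromosomes, and all passed the filter on low counts that left 16109 genes for testing. Crypts are the epithelial pockets in which the intestinal stem cells reside. They were released with EDTA from 4 constitutive Mex3a KO mice and 4 littermate controls (WT), C57BL/6, 8 weeks old. Total RNA was isolated for sequencing. Mex3a encodes an RNA-binding protein, and the KO allele lacks the first exon and part of the second in every cell of the mouse, not in the epithelium alone. No mouse received any further treatment according to the labels, and their sex is not given in them. The RNA came from whole crypt fractions, so fewer cells of a type and less RNA per cell cannot be told apart in any value that follows.

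Ribosomes are built in the nucleolus. RNA polymerase I (Pol I) transcribes the large ribosomal RNA precursor, small nucleolar ribonucleoproteins (snoRNPs) guide its chemical modification, and large assemblies of processing factors cut and fold it into the small and the large ribosomal subunit. Many genes of this pathway are textbook targets of Myc, a transcription factor downstream of WNT signalling in the crypt, which binds the E-box CACGTG. The question asked of these genes was how they differed between KO and WT crypts and how they varied with Myc from mouse to mouse.

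The E-box is the letter pattern that links these genes to Myc in the textbook account, so the promoters were read first. RefSeq promoters of GRCm38.p6, from 250 bases before to 50 bases after a gene's start, were at hand for 39 of the 45 genes. CACGTG, which reads the same on both strands, was in the promoters of 8 genes (20.5%): Ltv1, Nop2, Pes1, Pno1, Rrn3, Tsr1, Utp20 and Wdr43. It was in 19.8% of the 86 promoter-matched genes of a list of other ribosome biogenesis genes, in 11.5% of the 10889 genes tested that had a promoter and in 8.09% of all 27025 genes with one. The variant CACGCG, searched on both strands and so also as CGCGTG, was in 28.2% of the 39 genes, 30.2% of the 86 others, 19.0% of the genes tested and 10.5% of all. Both motifs share their first 4 letters and were counted separately. Rrn3, the initiation factor that makes Pol I competent to start, was the only one of the 8 with more than 1 CACGTG, and it is shown with 3 genes of the later steps, which have the motif just downstream of the start. The windows are 30 bases of the plus strand, which is the strand of each gene, with the E-box in capitals.
Rrn3 distal: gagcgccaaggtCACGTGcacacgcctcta
Rrn3 proximal: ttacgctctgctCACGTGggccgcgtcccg
Pes1: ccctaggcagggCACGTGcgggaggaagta
Wdr43: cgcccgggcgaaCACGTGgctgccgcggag
Tsr1: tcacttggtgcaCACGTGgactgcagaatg

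The Rrn3 windows lie at chr16:13780472-13780501 and chr16:13780639-13780668, with the motif beginning at -215 and -48 from the RefSeq start, and overlap no gene in the GENCODE M21 annotation. The Pes1 window (chr11:3963965-3963994, motif at 2) and the Wdr43 window (chr17:71616220-71616249, motif at 17) overlap an exon and UTR of the gene, and the Pes1 window also lies in the gene 4930556J24Rik on the opposite strand. The Tsr1 window (chr11:74898092-74898121, motif at 24) overlaps UTR and coding sequence. These are matches of letters, and no binding was measured here. The 8 genes with an E-box had a median log2 fold change between KO and WT of -0.074 and the 31 without had -0.15, while their median correlations with Myc were 0.51 and 0.43. None of the genes lower in KO at an unadjusted p under 0.05 (6, described below) was among the 8.

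Each library held between 20324184 and 30654105 reads counted on genes, and mitochondrial genes took 5.63% to 11.6% of them. Scaled to library size as CPM with TMM factors, Mex3a was 12.4, 11.03, 15.97 and 13.7 CPM in WT replicates 1 to 4 and 0.840, 1.09, 0.260 and 0.266 in KO replicates 1 to 4. Its log2 fold change was -4.43 (SE 0.43) in edgeR's quasi-likelihood test, with a Benjamini-Hochberg adjusted p of 0.0310. Mex3a was the only gene of the 16109 with an adjusted p under 0.05 (0.00621%). Its adjusted p was 0.126 once a replicate block entered the edgeR fit, and from 1.45e-30 to 0.214 over all settings tried. Among the marker lists, the stem cell genes had 6 of 11 lower and 0 higher at an unadjusted p under 0.05, and the enterocyte genes 0 of 14 lower and 6 higher, where 3.05% of all genes were lower and 5.33% higher. The 19 proliferation genes had 0 in either direction, with Mki67, Mcm6 and Rrm2 having the smallest p (log2 fold changes -0.10, -0.092 and 0.15). Replicates are separate mice, and no 2 libraries of a genotype were alike within sampling noise.

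The nucleolar genes were mostly a little lower in KO crypts. Of the 45 genes, 42 had a log2 fold change below 0, where 53.9% of all genes tested did, and the median was -0.14 against -0.016 over all genes. The genes varied together from mouse to mouse, as described below, so they are not 45 separate observations. Their mean level had an SD within a genotype of 0.12 on the log2 scale. The changes were small, from -0.35 for Polr1b to 0.062 for Pno1. At an unadjusted p under 0.05, edgeR's quasi-likelihood test called 6 genes lower in KO (13.3%), Polr1b, Gnl3, Rrp9, Gar1, Rrp1b and Nat10, beside 3.05% of all genes tested. It called 0 genes higher, beside 5.33% of all genes, and DESeq2 also called 0 higher. After Benjamini-Hochberg adjustment over all 16109 genes 0 of the 45 passed in edgeR, where the smallest adjusted p was 0.518, and 0 passed with DESeq2 or limma. The plot of fold changes shows each gene with its standard error.

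**Figure D1:**
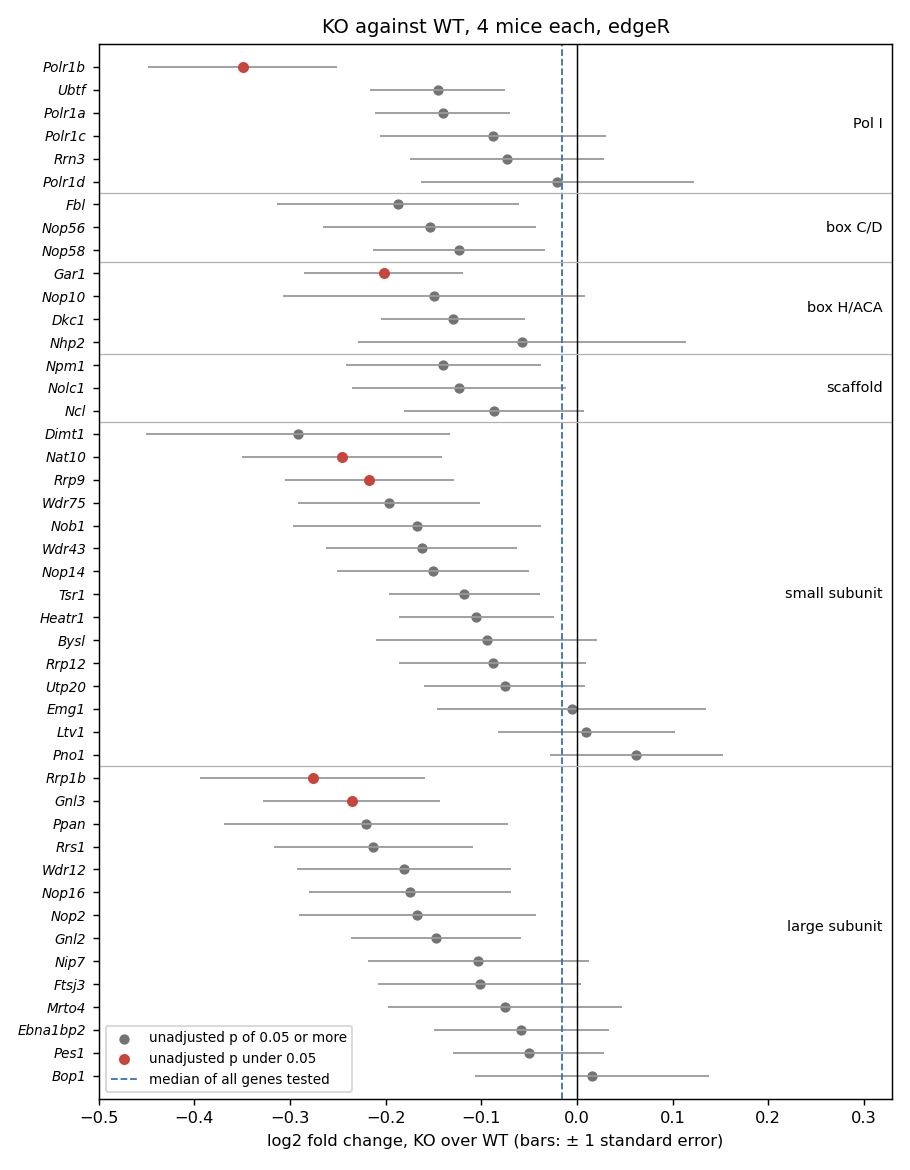
Log2 fold change of each of the 45 genes, KO over WT, with bars of 1 standard error (edgeR, 4 mice each), ordered by role. Red points are the 6 genes with an unadjusted p under 0.05, and the dashed line marks the median of all genes tested, -0.016. All but 3 points lie left of 0, and Polr1b lies farthest left at -0.35.

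Pol I transcription is the first step. Polr1b (ENSMUSG00000027395, chr2:129100995-129126594), a core subunit of the polymerase, had 84.6, 89.1, 81.4 and 75.0 CPM in WT replicates 1 to 4 and 75.9, 55.9, 64.1 and 63.3 CPM in KO replicates 1 to 4. The genotypes overlapped only through WT 4 and KO 1, which were almost equal. The WT mean was 82.5 ± 5.93 CPM and the KO mean 64.8 ± 8.25 (± SD of 4 mice), which gave a log2 fold change of -0.35 (SE 0.10, unadjusted p = 0.00604, adjusted p = 0.518, edgeR). Exact permutation of the mean difference through the 70 possible assignments gave a two-sided p of 0.0571 for Polr1b, where 0.0286 is the smallest p possible. Polr1b had an unadjusted p under 0.05 in all 16 other settings tried, including each fit that left out 1 mouse. The other 5 kept theirs in fewer, Gnl3 in 11 of 16, Rrp9 and Nat10 in 9 each, and Gar1 and Rrp1b in 8 each, and each of them lost it without KO 2 and without KO 3.

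Ubtf, which binds ribosomal DNA and shapes it for Pol I, was the only gene of the 45 (2.22%) with all KO values under all WT values, a share near the 1.87% of all genes. The opposite order was found for 0 of the 45 and for 2.17% of all genes. Ubtf (chr11:102304560-102319742) had 212, 233, 240 and 216 CPM in WT 1 to 4 and 207, 191, 210 and 206 CPM in KO 1 to 4, so the gap between the groups was narrow. Its log2 fold change was -0.15 (SE 0.07, unadjusted p = 0.0682, adjusted p = 0.618, edgeR). The largest subunit, Polr1a, stood at -0.14, the subunits shared with RNA polymerase III, Polr1c and Polr1d, at -0.088 and -0.020, and the initiation factor Rrn3 at -0.073, none with an unadjusted p under 0.05.

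The snoRNP core proteins come next. Box C/D snoRNPs, which guide ribose methylation, are built on the methyltransferase fibrillarin (Fbl) with Nop56 and Nop58. Nop56 was the most abundant of them by CPM, with 193, 227, 199 and 188 CPM in WT 1 to 4 and 221, 177, 163 and 164 CPM in KO 1 to 4. KO 1 lay among the WT mice and the other KO mice lay below all of them. The log2 fold changes were -0.15 for Nop56, -0.19 for Fbl and -0.12 for Nop58, and none of the 3 had an unadjusted p under 0.05. Box H/ACA snoRNPs, which guide pseudouridylation, hold the pseudouridine synthase Dkc1 with Gar1, Nhp2 and Nop10. Gar1 (chr3:129824912-129831396) had 67.2, 79.3, 77.3 and 75.0 CPM in WT 1 to 4 and 71.9, 66.8, 62.0 and 59.2 CPM in KO 1 to 4. It was the H/ACA protein lower in KO at an unadjusted p under 0.05 (log2 fold change -0.20, SE 0.08, adjusted p = 0.568, edgeR's quasi-likelihood test). Nhp2 varied widely from mouse to mouse, between 83.0 and 134 CPM, and its log2 fold change of -0.057 had an SE of 0.17. Dkc1 and Nop10 stood at -0.13 and -0.15, without a call.

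Abundant scaffold and chaperone proteins give the nucleolus its body. In FPKM, which scale the counts to exon length and library size, Npm1 (nucleophosmin) had the highest level of all 45 genes, with a WT mean of 215 ± 9.54 FPKM and a KO mean of 196 ± 26.01 (± SD of 4 mice). Nhp2, at a mean of 91.4 FPKM over the 8 mice, and Ncl (nucleolin), at 83.9, followed, and their ranges over the mice overlapped. The median gene of the 45 had a mean of 20.2 FPKM, and Dimt1 at 2.62, Wdr12 at 3.01 and Rrp1b at 5.84 were lowest. Npm1 had 601, 592, 578 and 541 CPM in WT 1 to 4 and 611, 545, 456 and 487 CPM in KO 1 to 4, so KO 1 was the highest of all and KO 3 the lowest. The log2 fold changes were -0.14 for Npm1, -0.087 for Ncl and -0.12 for Nolc1, a phosphoprotein that accompanies snoRNPs, and none had an unadjusted p under 0.05.

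The small subunit is matured by the U3 processome and late 40S factors, 15 of the 45 genes with a median log2 fold change of -0.12. Nat10, the acetyltransferase of 18S rRNA, and Rrp9, a U3 snoRNP protein, were lower in KO at an unadjusted p under 0.05. Nat10 (chr2:103721256-103761270) had 73.1, 95.3, 78.1 and 69.8 CPM in WT 1 to 4 and 73.9, 65.1, 64.5 and 63.3 CPM in KO 1 to 4, with a log2 fold change of -0.25 (SE 0.10, unadjusted p = 0.0423, adjusted p = 0.579, edgeR). Rrp9 (chr9:106475963-106485424) had 43.2, 49.5, 48.4 and 40.6 CPM in WT 1 to 4 and 43.2, 38.4, 36.7 and 38.0 CPM in KO 1 to 4, with a log2 fold change of -0.22 (SE 0.09, unadjusted p = 0.0351, adjusted p = 0.564, edgeR). In both genes KO 1 was at a WT level and the other 3 KO mice were below every WT mouse. Dimt1, the dimethyltransferase of 18S rRNA, had the second lowest fold change of the 45, -0.29, but at 8.34 to 13.0 CPM its SE was 0.16 (unadjusted p = 0.0979, adjusted p = 0.654, edgeR). The UtpA proteins Wdr75, Wdr43 and Heatr1, which bind the precursor early, stood at -0.20, -0.16 and -0.11.

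Both small subunit genes with a fold change above 0 act late, in 40S maturation. Pno1, which partners the endonuclease Nob1, had 43.8, 46.0, 49.8 and 45.3 CPM in WT 1 to 4 and 53.1, 52.8, 43.0 and 44.3 CPM in KO 1 to 4. Ltv1, which leaves the particle before the last steps, had 43.8, 49.4, 56.3 and 54.0 CPM in WT and 52.0, 49.8, 56.0 and 47.2 CPM in KO. Their log2 fold changes were 0.062 (SE 0.09) and 0.010 (SE 0.09), and KO and WT mice were mixed throughout. Emg1, a methyltransferase of 18S rRNA, stood at -0.0054 (SE 0.14). Other late factors, Nob1, Tsr1, Bysl and Rrp12, had log2 fold changes of -0.17, -0.12, -0.094 and -0.088, and the processome proteins Nop14 and Utp20 had -0.15 and -0.076. None of these had an unadjusted p under 0.05.

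The large subunit was represented by 14 genes with a median log2 fold change of -0.16. Gnl3 (nucleostemin), a nucleolar GTPase known for its high level in stem and progenitor cells, had 108, 105, 98.9 and 98.8 CPM in WT 1 to 4. In KO 1 to 4 it had 104, 80.2, 84.8 and 80.2 CPM, so KO 1 was again inside the WT range. WT mice averaged 103 ± 4.59 CPM and KO mice 87.2 ± 11.1 (± SD of 4 mice), for a log2 fold change of -0.24 (SE 0.09, unadjusted p = 0.0307, adjusted p = 0.557, edgeR). Gnl3 (chr14:31012433-31019152) overlaps Pbrm1 (chr14:31019138-31121592) on the opposite strand only at the edge of both. Pbrm1 had 139% of the counts of Gnl3. Rrp1b, a 60S factor, had 47.5, 52.2, 52.5 and 46.0 CPM in WT 1 to 4 and 47.4, 32.3, 39.3 and 44.6 CPM in KO 1 to 4. Its log2 fold change was -0.28 (SE 0.12, unadjusted p = 0.0421, adjusted p = 0.579, edgeR). The PeBoW complex, which processes the precursor of 28S rRNA, is made of Pes1, Bop1 and Wdr12, and its members had log2 fold changes of -0.050, 0.016 and -0.18. Bop1 had 81.4, 112, 91.4 and 84.1 CPM in WT 1 to 4 and 107, 97.1, 89.1 and 79.7 CPM in KO 1 to 4, with no order by genotype. The other large subunit genes, Ppan, Rrs1, Nop16, Nop2, Gnl2, Nip7, Ftsj3, Mrto4 and Ebna1bp2, lay between -0.22 and -0.058, none with an unadjusted p under 0.05.

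Counting could mix reads for some of these genes, since the strand setting is not given in the sources used here. Of the 45 genes, 19 overlap a gene on the opposite strand, 15 of them a protein-coding gene. Besides Gnl3 these include Rrp9 with Parp3 (30.05% of its counts) and Dimt1 with Kif2a (547%), as shares of whole-gene counts. Reads in the stretch shared by such a pair cannot be told apart without strand, while other reads can by position. Rrp9 (chr9:106475963-106485424) shares with Parp3 the part up to 106476949. Dimt1 (chr13:106947127-106960224) shares with Kif2a the part from 106958996 on. Polr1b, Gar1, Rrp1b and Nat10 overlap no other gene. No member shares its strand with an overlapping protein-coding gene, 8 hold snoRNA genes on the same strand, and Mrto4 has 2 named pseudogenes with 8.80% and 0.841% of its counts.

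The 45 genes varied together from mouse to mouse. Over the 8 mice, the median correlation between 2 of the genes was 0.68 (990 pairs, 96.3% above 0) against 0.012 for pairs of all genes tested (50.9% above 0). All values share the same 8 libraries and their normalization factors. With each genotype centred on its own mean the median stayed at 0.63. Ltv1 stood apart, with a median correlation of -0.00037 with the other 44, and Pno1 followed at 0.31, while Rrs1, Nop56, Nop14 and Nop2 exceeded 0.80. The median SD within a genotype was 0.15 on the log2 scale, against 0.22 over all genes and 0.13 over the other ribosome biogenesis genes. The value over all genes includes genes with few counts, so that comparison is not matched for level.

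KO 1 did not lie with the other KO mice. The mean deviation of the 45 genes from their own means was 0.032, 0.18, 0.093 and -0.032 (log2) in WT 1 to 4 and 0.15, -0.11, -0.16 and -0.15 in KO 1 to 4. In KO 1, 44 of the 45 genes were above their own mean, and 11 were higher than in any other mouse. In KO 2, KO 3 and KO 4, 30, 40 and 36 of the 45 genes were below the lowest WT mouse, where 22.1%, 24.1% and 22.1% of all genes were. In KO 1 it was 1 of the 45, beside 19.3% of all genes. For 24 genes these 3 KO mice were all below every WT mouse and KO 1 was not, beside 4.19% of all genes, a split looked at after KO 1 was seen to stand apart. The summed level of the 45 genes was 4893, 5277, 5151 and 4698 CPM in WT and 5320, 4490, 4242 and 4327 CPM in KO. KO 1 was the highest of the 8 mice in this sum, while WT 2 was highest by mean deviation. Mex3a in KO 1, at 0.840 CPM, was inside the range of the other KO mice.

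**Figure D2:**
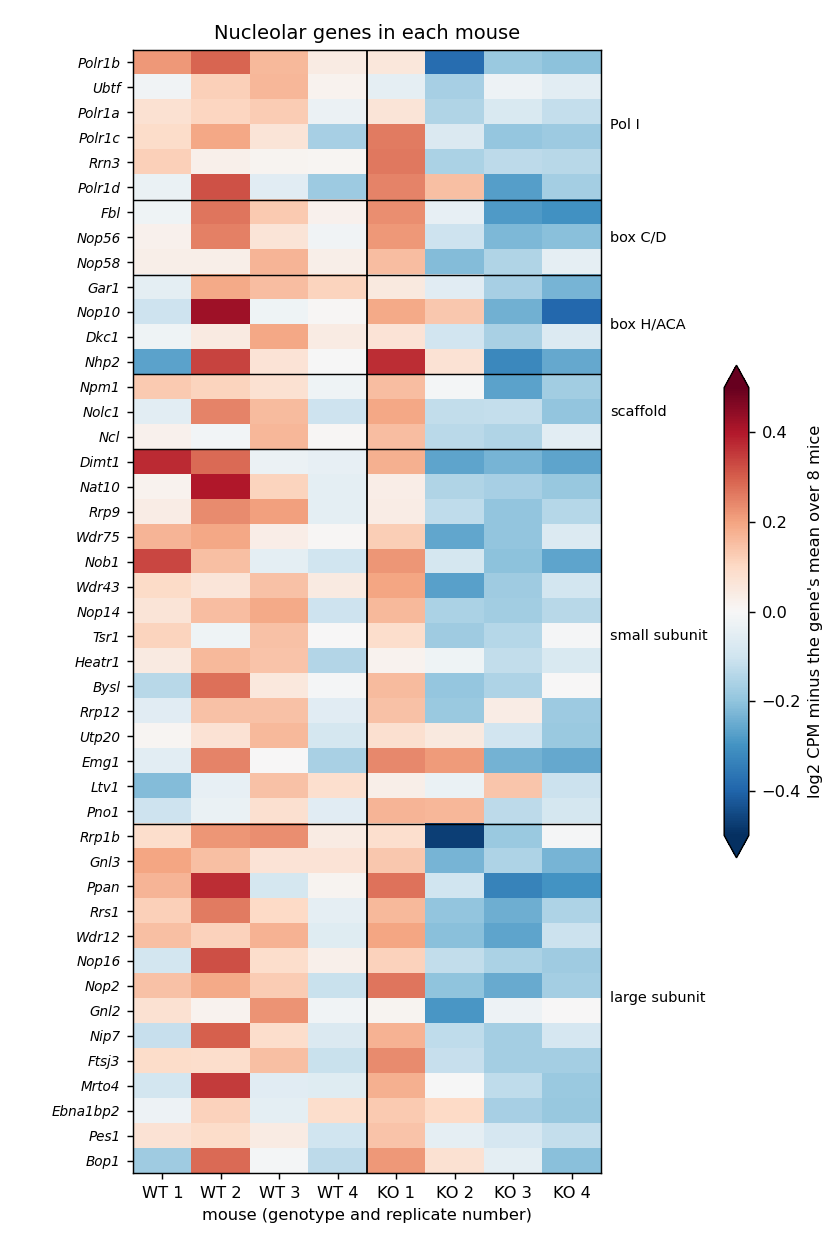
Level of the 45 genes (rows, ordered by role and fold change) in each mouse (columns), as log2 CPM minus the gene's mean over the 8 mice, with red above and blue below the mean. KO 3 and KO 4 are blue in 43 of 45 genes each and KO 2 in 37, KO 1 is red in 44 of 45, and WT 2 holds the highest value of 19 genes.

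Same-numbered mice showed the same split. Replicate numbers are shared by the genotypes, and the mice of a number deviated together over all genes. KO was below WT in 11 of the 45 genes in pair 1, in 43 in pair 2, in 45 in pair 3 and in 41 in pair 4. The median differences were 0.10, -0.29, -0.26 and -0.094 (log2), against medians over all genes of -0.011, -0.0098, -0.00062 and -0.0023. In 9 of the 45 genes KO was below WT in all 4 pairs, beside 9.66% of all genes. In the edgeR fit with a replicate block, 4 genes (8.89%) were lower in KO at an unadjusted p under 0.05, Gnl3, Polr1b, Nat10 and Nob1, beside 4.13% of all genes. Gar1, Rrp1b and Rrp9 lost the call with the block (unadjusted p = 0.0597, 0.0557 and 0.0530, edgeR), with log2 fold changes of -0.20, -0.29 and -0.21 there against -0.20, -0.28 and -0.22 without it.

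**Figure D3:**
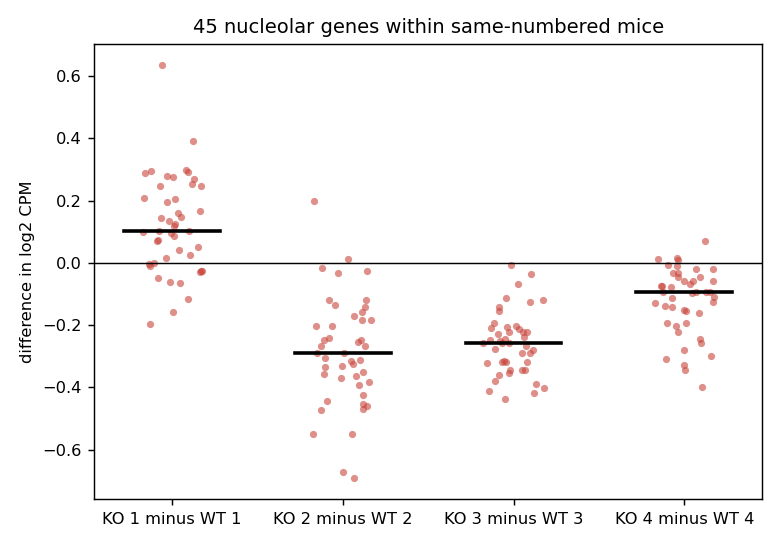
Difference in log2 CPM, KO minus WT, within mice of the same replicate number, with 1 point for each of the 45 genes and black bars at the medians (0.10, -0.29, -0.26 and -0.094). In pair 3 all 45 points lie below 0, and in pair 1 most lie above it.

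Which mouse was left out decided how many genes were called. Without KO 1, edgeR called 24 of the 45 genes (53.3%) lower in KO at an unadjusted p under 0.05, beside 5.04% of the 16428 genes then tested. The median log2 fold change of all 45 was then -0.21. All 3 box C/D genes were among the 24, with 8 of the 14 large subunit genes, 7 of 15 small subunit genes, 3 of 6 Pol I genes, 2 of 4 box H/ACA genes and 1 of 3 scaffold genes. None of the 45 had an adjusted p under 0.05 in that fit either (smallest 0.155, for Polr1b, which ranged up to 0.952 over all settings). The count was 1 (2.22%) without WT 2, KO 2 or KO 3, beside 3.37%, 2.21% and 2.17% of all genes, and so close to or below the background. It was 2 without WT 3 or KO 4, beside 2.37% and 2.47%, 5 without WT 1, beside 2.67%, and 7 without WT 4, beside 2.61%. No label sets KO 1 apart from the other KO mice.

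**Figure D4:**
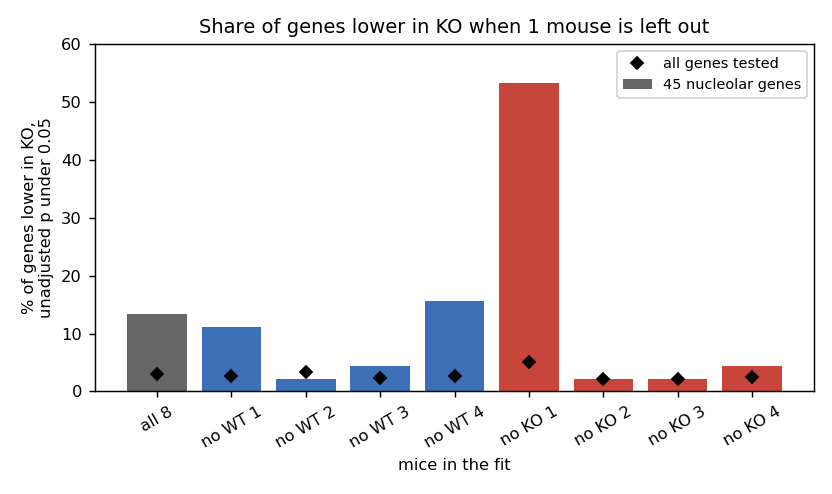
Share of the 45 genes (bars) and of all genes tested (diamonds) that were lower in KO at an unadjusted p under 0.05 in edgeR, in percent, with all 8 mice and without each mouse in turn. The bar without KO 1 reaches 53.3%, and the bar with all 8 mice 13.3%.

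Marker lists were summed in the same mice, and they did not all split the mice as the nucleolar genes did. The summed level of 14 enterocyte genes was 3121, 2469, 3402 and 6027 CPM in WT 1 to 4 and 3795, 4744, 13601 and 8503 CPM in KO 1 to 4, so the mice with the most were KO 3 and KO 4, and WT 4 had the most among WT. The genes with the smallest p were Mep1a, Apoa1 and Anpep, with log2 fold changes of 1.27, 1.78 and 1.40. The 11 stem cell genes summed to between 6007 and 6600 CPM in WT and between 4555 and 5527 in KO, with no overlap, and Smoc2, Olfm4 and Cdca7 stood at -0.31, -0.34 and -0.28. The 12 immune genes summed to 47.7 to 75.6 CPM in WT and 66.4 to 130 in KO, where KO 3 was highest, and 3 of the 11 tested were higher at an unadjusted p under 0.05 (Cd3e 1.60, Cd8a 1.29 and Gzma 1.38), beside 5.33% of all genes. The 19 proliferation genes summed to between 2975 and 3672 CPM in WT and between 2809 and 3558 in KO. The 10 secretory genes ranged from 6759 to 19255 CPM in WT and from 5315 to 11189 in KO, with 0 called in either direction (Dclk1 -0.64, Lyz1 -0.70 and Tff3 0.21). Stroma and vessel genes (11, of which 6 were tested and 0 called, with Dcn at 0.85, Vwf at -0.22 and Col3a1 at -0.12) summed to at most 19.0 CPM in any mouse. The 5 globin and red cell genes summed to at most 4.44 CPM, and the 1 tested, Hba-a1, was lower at -1.26. No gene of these lists was at 0 in every mouse. The part of cell composition in the nucleolar result was not tested.

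Other genes of the pathway are given from a list of their own. Of 102 further ribosome biogenesis genes in the table, 101 were tested, 88 had a log2 fold change below 0 and the median was -0.10. At an unadjusted p under 0.05, 7 (6.93%) were lower in KO, beside 3.05% of all genes, and 0 higher, and 0 passed adjustment (edgeR). The smallest p belonged to the 60S remodelling ATPase Mdn1 (-0.34), the 60S factor Nsa2 (-0.22) and the Pol I factor Taf1a (-0.33). Mdn1 had 150, 130, 145 and 115 CPM in WT 1 to 4 and 105, 101, 113 and 108 CPM in KO 1 to 4, and here KO 1 lay with the other KO mice. The count was 30 without KO 1, beside 5.04% of all genes, and 10 with the replicate block, beside 4.13%. It was 3 without WT 2, KO 3 or KO 4, beside 3.37%, 2.17% and 2.47% of all genes, and 4 without WT 3 or KO 2, beside 2.37% and 2.21%. These counts of 3 and 4 were near the background. Of 20 Myc targets that act outside the nucleolus, 17 had a log2 fold change below 0, with a median of -0.085. At an unadjusted p under 0.05, 2 (10.0%) were lower, beside 3.05% of all genes, and 0 higher, beside 5.33% (edgeR). The 2 were Shmt1 (-0.24) and Apex1 (-0.20), and Pfas (-0.19) had the next smallest p, without the call.

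Myc itself had 139, 110, 88.3 and 104 CPM in WT 1 to 4 and 91.5, 79.7, 72.1 and 86.6 CPM in KO 1 to 4. KO 1 was the highest of the KO mice and slightly above WT 3, and the other KO mice lay below all WT mice. WT mice averaged 110 ± 21.3 CPM and KO mice 82.5 ± 8.44 (± SD of 4 mice), for a log2 fold change of -0.42 (SE 0.14, unadjusted p = 0.0125, adjusted p = 0.518, edgeR, and exact permutation p = 0.0571). Of the 13 genes of the Myc network tested, Myc included, 2 were lower at an unadjusted p under 0.05, Myc itself and Mga (-0.36), beside 3.05% of all genes. Another 2 were higher, beside 5.33% of all genes, the Myc antagonist Mxd1 (0.96) and Mlx (0.17), named after its value was seen.

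Across the 8 mice, 42 of the 45 genes correlated positively with Myc, where 53% of all genes did, and the median Pearson's r was 0.43 against 0.040 over all genes. An exact permutation test over all 40320 pairings was run for each of 16108 genes. It gave an unadjusted p under 0.05 with a positive r for 5 of the 45 genes (11.1%), beside 4.69% of all genes, and with a negative r for 0, beside 6.08%. After Benjamini-Hochberg adjustment over the 16108 relations, 0 of the 45 and 0 genes in all (0%) passed, with a smallest adjusted permutation p of 0.367 among the 45. By Spearman's rho 8 of the 45 genes had an unadjusted permutation p under 0.05, beside 4.42% of all genes. The median rho was 0.62 against 0.048 over all genes, and the smallest adjusted permutation p was 0.334. Since Myc also differed between the groups, each r also holds the difference between KO and WT.

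The 5 genes were Dimt1, Wdr75, Gnl3, Nob1 and Polr1b, of which Nob1 is shown after its value was seen. Dimt1 had 13.0, 12.2, 9.81 and 9.73 CPM in WT 1 to 4 and 11.3, 8.34, 8.52 and 8.35 CPM in KO 1 to 4, so both Dimt1 and Myc were highest in WT 1 and low in KO 2, KO 3 and KO 4. Its r with Myc was 0.85 (exact permutation p = 0.00499, adjusted p = 0.367) and its rho 0.86 (exact permutation p = 0.0107, adjusted p = 0.355). Wdr75 had 49.6, 50.4, 45.02 and 44.2 CPM in WT 1 to 4 and 47.9, 36.8, 38.4 and 42.0 CPM in KO 1 to 4, with an r of 0.81 (exact permutation p = 0.0133, adjusted p = 0.377) and a rho of 0.88 (exact permutation p = 0.00724, adjusted p = 0.334). For Gnl3, r was 0.77 (exact permutation p = 0.0197, adjusted p = 0.391) and rho 0.86 (p = 0.0107, adjusted p = 0.355). Nob1, with 70.1, 61.7, 53.7 and 51.8 CPM in WT 1 to 4 and 64.7, 52.2, 48.2 and 46.3 CPM in KO 1 to 4, had an r of 0.76 (exact permutation p = 0.0251, adjusted p = 0.404) and a rho of 0.71 (p = 0.0576, adjusted p = 0.454). For Polr1b, r was 0.75 (exact permutation p = 0.0314, adjusted p = 0.413) and rho 0.81 (p = 0.0218, adjusted p = 0.390). At the other end, Ltv1 had an r of -0.64 (exact permutation p = 0.0866, adjusted p = 0.517), Pno1 -0.26 and Bop1 -0.10.

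The relation with Myc was also examined with the difference between the genotypes removed. With each genotype centred on its mean and the mice permuted within genotype, the median r fell to 0.12 and 1 of the 45 genes (2.22%) kept an unadjusted permutation p under 0.05 with a positive r, beside 2.95% of all genes. That gene was Dimt1 (r = 0.75, exact permutation p = 0.0399). Nob1 was next (r = 0.73, exact permutation p = 0.0503), and Ltv1 was on the other side at -0.87 (exact permutation p = 0.0243). Without WT 1 and KO 3, the 2 mice farthest from the median of Myc, the median r over the 45 genes was 0.43 and 0 genes had an unadjusted permutation p under 0.05, beside 1.93% of all genes. The calls were lost with 6 mice left, while the median r was close to that over all 8, and of the 5 genes called Nob1 had the largest drop, from 0.76 to 0.43. For Dimt1 r was then 0.75 (exact permutation p = 0.0764) and for Wdr75 0.79 (exact permutation p = 0.0542). No correlation with Myc was computed within 1 genotype, since only 4 mice stand behind it. With the replicate number centred as well (replicate block), which leaves 4 pair differences, the direction turned, with a median r of -0.51 over the 45 genes against 0.067 over all genes, given as values without a test. The mouse with the highest Myc, WT 1, had a mean deviation of the 45 genes of 0.032, below that of WT 2, WT 3 and KO 1.

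**Figure D5:**
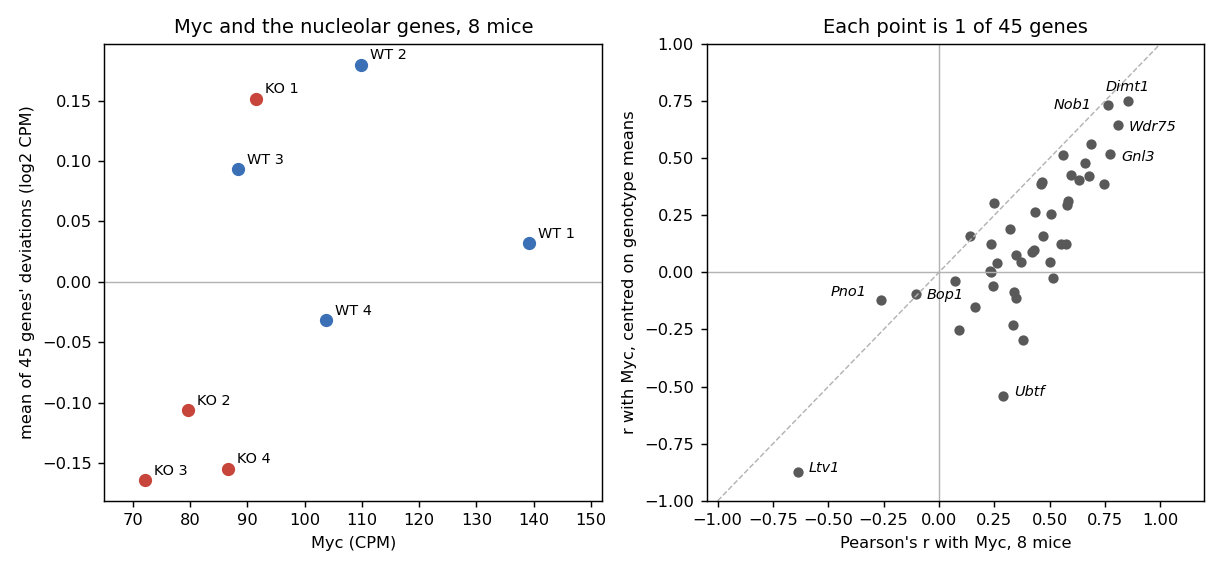
Left, Myc in CPM against the mean deviation of the 45 genes (log2 CPM) in each WT (blue) and KO (red) mouse. Right, Pearson's r of each gene with Myc over 8 mice against r after centring each genotype on its mean, with the diagonal dashed. Most points lie below the diagonal, Dimt1 stays at 0.75 after centring, and Ltv1 lies at the lower left.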

How the data were processed

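RNA-seq of crypts from 4 KO and 4 WT mice was used, with genotype and replicate taken from the labels. The authors deposited raw counts per gene, without normalization, and FPKM values, in which the counts are divided by gene length and library size. The submitters' processing notes name CASAVA, HISAT2 2.0.5 and featureCounts 1.5.0-p3, and the strand setting is not given in the sources used here. The deposited table also holds the authors' group means, log2 fold changes, p-values and adjusted p-values, which were not used.

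Counts were compared with edgeR 4.0.16 in R 4.3.3 (filterByExpr with a minimum count of 10, TMM factors, quasi-likelihood test, genotype as the only term, all 8 mice). Adjustment of p-values was Benjamini-Hochberg over 16109 genes, and edgeR's common coefficient of biological variation came to 0.237. The SE is the absolute log2 fold change divided by the square root of F. Correlations with Myc used log2 CPM and exact permutation (Python 3.11.15). Sequences are from RefSeq (GRCm38.p6), and coordinates of 44 of the 45 genes equal those of GENCODE M21. Figures were drawn with matplotlib 3.10.9.

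The members, their roles and all lists (other ribosome biogenesis, Myc network, Myc targets, proliferation, stem cell, enterocyte, secretory, immune, stroma and vessel, blood) were chosen with earlier results of these data known. Utp25, on the list of other genes, was not found by name and not analysed here. Described singly were genes with an unadjusted p under 0.05, the 3 with the largest fold change in each direction, the 3 highest and 3 lowest by FPKM and by r with Myc, and the most abundant gene of each role; of other lists, the 3 with the smallest p.

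Same-numbered mice deviated together from their genotype means in all 4 pairs (r = 0.129, 0.501, 0.141 and 0.294 over all genes, and 0.0873, 0.481, 0.0921 and 0.252 over autosomal genes). The labels do not say what a number marks. Mice of different numbers were not compared in this way. The main fit and the exact permutation between genotypes did not use the numbers. The fit with a replicate block treated them as pairing the mice and stands beside the result. Alternatives were DESeq2 1.42.0, upper-quartile or RLE factors, no filter, a filter of at least 10 counts in every mouse, limma 3.58.1 on log2(FPKM + 1) and log2(FPKM + 0.1), the block, and leaving out each mouse. The tests were checked on simulated counts. Libraries of a genotype differed from each other beyond counting noise (chi-square over its degrees of freedom, 23.8 to 88.5), so the spread between mice sets the precision.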

Additional observations from a re-analysis of the deposited data

Results flagged for a closer look

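In 9 of the 92 groups of 4 mice examined, the highest or lowest mouse stood apart from the other 3. A group was 1 gene in WT or in KO, and nearly all of the genes were members. The gap, as a share of the group's range, passed Dixon's critical value for 4 samples. Chance gives about 1 in 20, or 4.6 groups. KO 1 was the mouse that stood apart in 5 of them. It was the high one for Nop2 (105.8 CPM, against 74.0 to 78.2 in the other KO mice), Nop14 (48.2 against 38.2 to 39.1), Rrn3 (58.1 against 43.3 to 44.2), Ftsj3 (116.6 against 87.9 to 91.5) and Dimt1 (11.3 against 8.34 to 8.52). KO 2 was low for Gnl2, at 42.4 CPM against 50.9 to 52.4. Among WT mice, WT 3 was high for Nop58 (180.1 CPM against 163.4 to 163.6), WT 1 for Rrn3 (52.6 against 48.7 to 49.2) and WT 2 for Mrto4 (49.3 against 36.3 to 37.2). These genes share the libraries, so the flags are not independent of each other.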

How the results depend on the processing

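The 19 members that the naming rule picked (without Nob1) were re-examined under 16 alternatives each, where 247 of 304 values kept direction and side of the unadjusted threshold, 35 lost the call, 7 gained it and 15 changed sign. Over all 45 members, 6 changed sign under some alternative, Bop1, Emg1, Ltv1, Nhp2, Polr1d and Mrto4, all between -0.075 and 0.016 with all 8 mice. Leaving out 1 mouse moved Bop1 between -0.057 and 0.12 (below 0 without WT 1, WT 4, KO 1 or KO 2, at -0.040, -0.026, -0.057 and -0.0015). It moved Emg1 between -0.092 and 0.080 (above 0 without WT 2, KO 3 or KO 4, at 0.080, 0.068 and 0.074), and with no filter Emg1 was 0.0027. It moved Ltv1 between -0.056 and 0.066 (below 0 without WT 1, WT 2 or KO 3, at -0.056, -0.0041 and -0.035), and with upper-quartile factors Ltv1 was -0.0060. It moved Nhp2 between -0.21 and 0.052 (above 0 without WT 2, KO 3 or KO 4, at 0.052, 0.034 and 0.018). Polr1d was 0.092, 0.062 and 0.033 without these mice, and Mrto4 0.041 without WT 2. The count of members lower in KO stayed between 4 and 7 with other tools, factors, filters and units, at 6 with DESeq2 and at 4 with the replicate block. Leaving out 1 mouse gave 1 to 24, a median log2 fold change of -0.21 to -0.10, and 0 higher each time. For the other ribosome biogenesis genes it gave 3 to 30, and upper-quartile factors gave 12. The count correlated with Myc was 2 to 8 and the median r 0.28 to 0.60 when 1 mouse was left out. Centring on genotype gave 1 gene and a median r of 0.12, and leaving out the 2 mice farthest from the median of Myc gave 0 genes. With genotype and replicate block both centred, which leaves 4 pair differences and was given no test, the median r was -0.51. The cause of these shifts was not tested. Beyond the gains and losses given above for Nob1, Gar1, Rrp1b, Rrp9 and Mex3a, the replicate block changed no call of a member. Dimt1 had the lowest counts of the members, 197 to 281 per library, and how depth and the spread between mice share its SE was not tested.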
